A study of Bos taurus with 11 samples.

Results

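The bovine miRNAs numbered miR-2286 to miR-2490 were examined in mammary gland small RNA libraries. Members were chosen by name alone, as every listed miRNA numbered from miR-2286 to miR-2490 with any letter or arm suffix. This gave 131 of the 796 miRNAs listed, or 16.5% of them, and 109 distinct names once the arm is left aside. The libraries came from mammary gland biopsies of 5 Holstein and 6 Montbéliarde cows (Bos taurus), with 1 library for each cow. All cows were in mid-lactation and were given the same diet, and their ages are not given in the sources used here. The study compared the miRNomes of these breeds. A biopsy is a mixture of cell types, so fewer cells of a type and less RNA per cell cannot be told apart in any value given here. Libraries are named by breed and by a number that follows the order of the sample records.

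A miRNA is cut from a hairpin precursor by Drosha and then Dicer. Either strand of the resulting duplex can be loaded into an Argonaute protein, where bases near the 5′ end (the seed) pair with target mRNAs. The strand from the left side of the hairpin is called 5p and the one from the right side 3p, and for most hairpins one strand is kept far more often than the other. Many of the names in this number range entered the catalogue together, from small RNA sequencing of a bovine kidney cell line, and most have no well described target or function in the mammary gland. No role is therefore given below for the miRNAs themselves, and the genes that overlap them are described instead. Sequences of the mature miRNAs were not used here.

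The libraries held 7431936 to 16808976 counted reads in Holstein, and 6087865 to 11395785 in Montbéliarde. At these depths, a member with no read in a library may have had up to 0.178 to 0.493 counts per 1000000 counted reads (CPM) there, that is 3 counts of the library's total. These limits, and the intervals below, cover counting error only. The 7 miRNAs fixed as markers of epithelium, among them the miR-200 family, were read in every library. Their summed level was 36585 to 48131 CPM in Holstein (median 43642) and 16278 to 46500 in Montbéliarde (median 27650, exact permutation test p = 0.0325, adjusted p = 0.0974 over 6 marker lists). The 5 stromal markers, with miR-143 and miR-145, were also read in every library and summed to 159655 to 213806 CPM in Holstein and 219875 to 338643 in Montbéliarde, without overlap (exact permutation test p = 0.00649, adjusted p = 0.0390). Markers of leukocytes (5 of 5), red blood cells (3 of 3) and endothelium (2 of 2) were read in every library, and their sums did not differ between breeds beyond the spread (lowest exact permutation p = 0.405). Of the 3 muscle markers, 2 were listed and were read in every library. Montbéliarde 2 had both the lowest epithelial and the highest stromal sum. Library tags run in separate ranges for the breeds, and the labels do not say what the order of the tags records.

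Most of the members were read rarely. Of the 131, 113 had at least 1 count in some library and 18 had none. The miRNAs without a read, listed here whatever their numbers, were miR-2323, miR-2327, miR-2328-3p, miR-2350, miR-2354, miR-2370-5p, miR-2383, miR-2395, miR-2402, miR-2412, miR-2415-5p, miR-2451, miR-2453, miR-2454-5p, miR-2455, miR-2456, miR-2466-5p and miR-2485. A count of 0 over all 112475288 counted reads allows up to 0.0267 CPM, so these were not detectable at this depth. A further 24 members were read in 1 library only, 35 in 2 to 5 libraries and 33 in 6 to 10 libraries. Only 21 members, 16% of them, were read in all 11 libraries, against 378 of the 649 other known miRNAs (58.2%). The median member had 6 counts over all libraries together, whereas the median of the other known miRNAs was 149. There were 19 members with a single count in the whole data set.

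**Figure D1:**
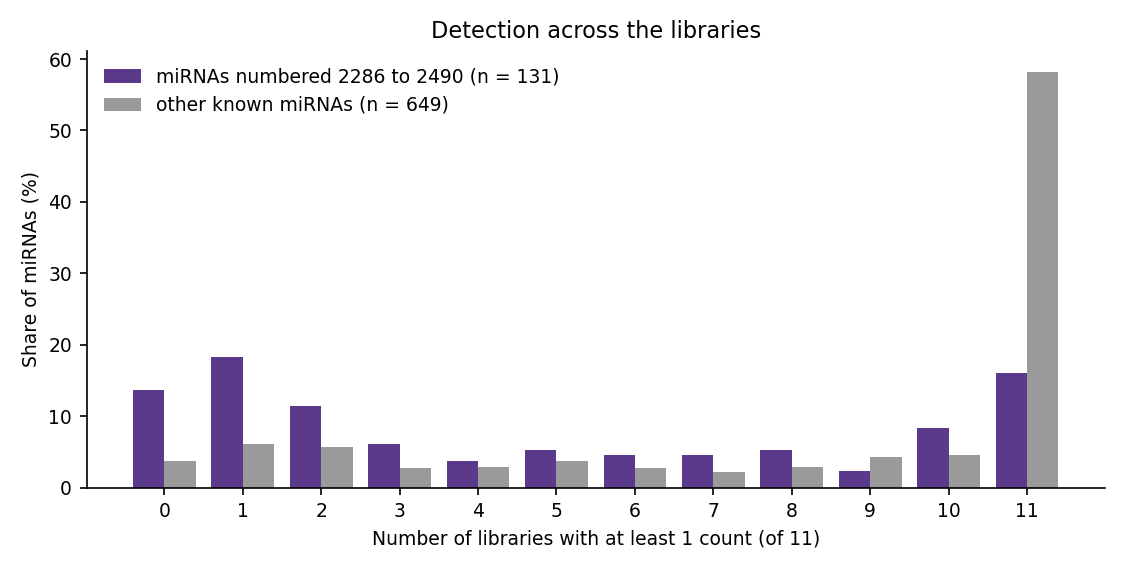
Share of miRNAs (percent) by the number of libraries, of 11, in which they had at least 1 count, for the 131 miRNAs numbered miR-2286 to miR-2490 and the 649 other known miRNAs. The members are spread over the whole range with 13.7% at 0 libraries and 16% at 11, whereas 58.2% of the other known miRNAs stand at 11.

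The share of members detected in a library was 44.1% ± 4.48 (SD, n = 11), against 76.1% ± 3.78 of the other known miRNAs in the same libraries. It was lower in 11 of 11 libraries, with a mean difference of -32.0 percentage points (SD 2.02, exact sign-flip permutation test over libraries, two-sided p = 0.000977, the smallest this test can give). Comparison was also made with 2 other groups of bovine miRNAs defined by name. The miR-2284 and miR-2285 family, a large ruminant family with 113 miRNAs listed, was detected at 57.7% ± 8.39, and the 76 miRNAs numbered miR-11971 to miR-12067 at 56.7% ± 6.18. Members stood below these groups, with differences of -13.6 and -12.6 percentage points, again in 11 of 11 libraries (exact sign-flip permutation p = 0.000977 for each, and 0.000977 after adjustment over the 3 comparisons). All these shares come from the same libraries and so share their depth. The same miRNAs were scored in every library, so these p-values measure agreement between libraries and not the variation between miRNAs.

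The number of members detected was 60, 55, 63, 67 and 56 in the Holstein libraries and 50, 52, 49, 58, 63 and 62 in the Montbéliarde libraries. The breeds overlapped, and the means of 60.2 ± 4.97 and 55.7 ± 6.15 did not differ beyond the spread (difference, Montbéliarde minus Holstein, -4.53, exact permutation test p = 0.225). The Holstein libraries were also the deeper ones on average, at 11795354 against 8916419 counted reads. When every library was thinned to the smallest total, the expected number of members detected became 48.7 ± 3.45 in Holstein and 49.0 ± 2.77 in Montbéliarde, and the sign of the difference turned (0.303, exact permutation p = 0.887). Of the members detected, 77 were read in both breeds, 19 in Holstein only and 17 in Montbéliarde only. No member read in a single breed had more than 7 counts. The largest of these totals belonged to miR-2463, with 7 counts, and no breed-specific expression can be read from such numbers.

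**Figure D2:**
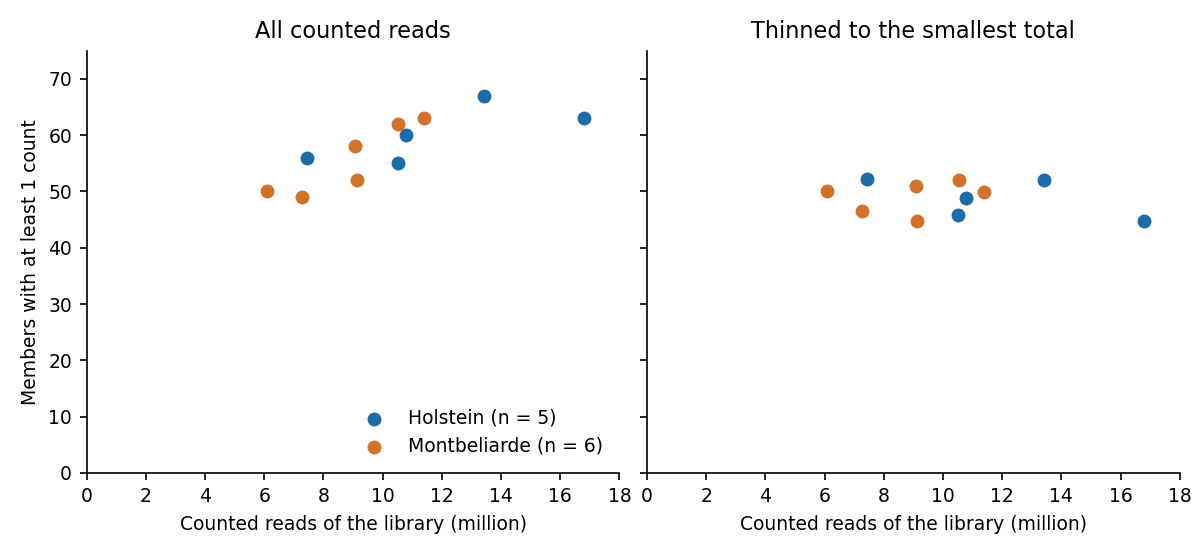
Number of members with at least 1 count against the counted reads of the library, one point per cow, for all counted reads on the left and after thinning to the smallest total on the right. The 11 libraries run from 49 to 67 members on the left, and from 44.8 to 52.2 on the right.

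Together the members held 15694 counts, or 0.0140% of all counted reads. Their summed level was 153, 163, 97.2, 139 and 228 CPM in Holstein, and 163, 61.1, 164, 173, 97.6 and 163 in Montbéliarde. Holstein 5 was the highest and Montbéliarde 2 the lowest, and the breeds overlapped. The means were 156 ± 47.5 and 137 ± 46.1 CPM (difference -19.2, exact permutation test p = 0.537). A single miRNA, miR-2419-5p, supplied 42.8% of these counts, from 20.1% in Montbéliarde 2 to 63.1% in Holstein 5. Without it the summed levels were 80.0 ± 5.89 in Holstein and 81.6 ± 20.3 in Montbéliarde (difference 1.60, exact permutation p = 0.883), so the sign of the breed difference rested on that miRNA. The 4 most abundant members held 82.5% of the counts, the top 10 held 88.9%, and 12 members made up 90%.

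Levels are given below as normalized read counts, that is the raw counts divided by 1 size factor per library. Only 9 members had a mean of at least 10 normalized read counts over the 11 libraries, and 3 had a mean of at least 100. The highest member, miR-2419-5p, stood at rank 135 among all miRNAs listed, and the tenth, miR-2320-5p, at rank 361. Mature miRNAs are of similar length, so these levels were compared without a correction for length.

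In raw counts, miR-2419-5p had 783, 905, 431, 699 and 1070 in Holstein and 391, 112, 615, 694, 338 and 674 in Montbéliarde. After normalization the highest library was Holstein 5, at 1394, and the lowest was Montbéliarde 2, at 140, and the other libraries of the breeds overlapped. Its mean was 746 ± 440 in Holstein and 534 ± 283 in Montbéliarde, with a log2 fold change (Montbéliarde over Holstein) of -0.48 (SE 0.44, edgeR adjusted p = 0.649). In the RefSeq annotation its gene lies outside other genes, between NOD1, a sensor of bacterial peptidoglycan, and ZNRF2, a ubiquitin ligase.

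The next member, miR-2336, had 340, 264, 462, 350 and 246 counts in Holstein and 249, 82, 189, 342, 223 and 365 in Montbéliarde. In normalized read counts Holstein libraries lay close together, at 280 ± 33.5, while the Montbéliarde libraries, at 268 ± 109, reached from 102 in Montbéliarde 2 to 415 in Montbéliarde 1. The log2 fold change was -0.06 (SE 0.28, edgeR adjusted p = 0.955), and its sign turned when Holstein 1, Montbéliarde 2 or Montbéliarde 5 was left out (up to 0.18). Its gene also lies outside other genes, between VPS53, part of a complex that returns vesicles to the Golgi, and RFLNB, a regulator of filamin.

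For miR-2299-5p the counts were 186, 191, 270, 291 and 108 in Holstein and 148, 158, 116, 138, 228 and 284 in Montbéliarde. It was the steadiest of the abundant members, at 171 ± 22.8 and 195 ± 39.1 normalized read counts, and the breeds overlapped (log2 fold change 0.18, SE 0.19, edgeR adjusted p = 0.722). Its gene overlaps B3GLCT, which encodes a glucosyltransferase that modifies thrombospondin repeats.

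Counts of miR-2478 were 58, 130, 135, 181 and 70 in Holstein and 31, 26, 81, 142, 66 and 85 in Montbéliarde. Both breeds held low and high libraries, and the means of 95.2 ± 32.3 and 77.6 ± 42.0 normalized read counts gave a log2 fold change of -0.29 (SE 0.36, edgeR adjusted p = 0.775). This miRNA gene lies between NKAIN2, an interaction partner of a sodium pump subunit, and TRDN, which encodes triadin of the muscle calcium release complex.

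The remaining members of the top 10 were all below the level of miR-2478. Mean levels over the 11 libraries were 30.1 normalized read counts for miR-2411-5p, 14 for miR-2332, 13.9 for miR-2483-5p, 10.6 for miR-2484, 10.5 for miR-2339 and 9.58 for miR-2320-5p. The gene of miR-2411 overlaps UBAP2L, which has a part in stress granule assembly, and that of miR-2332 overlaps UTP6, a factor of small ribosomal subunit maturation. For miR-2483 the overlapping gene is TENM1, a teneurin of the cell surface, for miR-2339 ELAC2, the RNase Z that trims tRNA precursors, and for miR-2484 the uncharacterized LOC112445178. None of these 6 members, miR-2320-5p included, differed between breeds beyond the spread, the largest log2 fold change being 0.75 for miR-2332 (SE 0.40, edgeR adjusted p = 0.398). The neighbours miR-2332 and miR-2483-5p in the order of levels, like miR-2484 and miR-2339, had means closer than the spread between libraries.

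**Figure D3:**
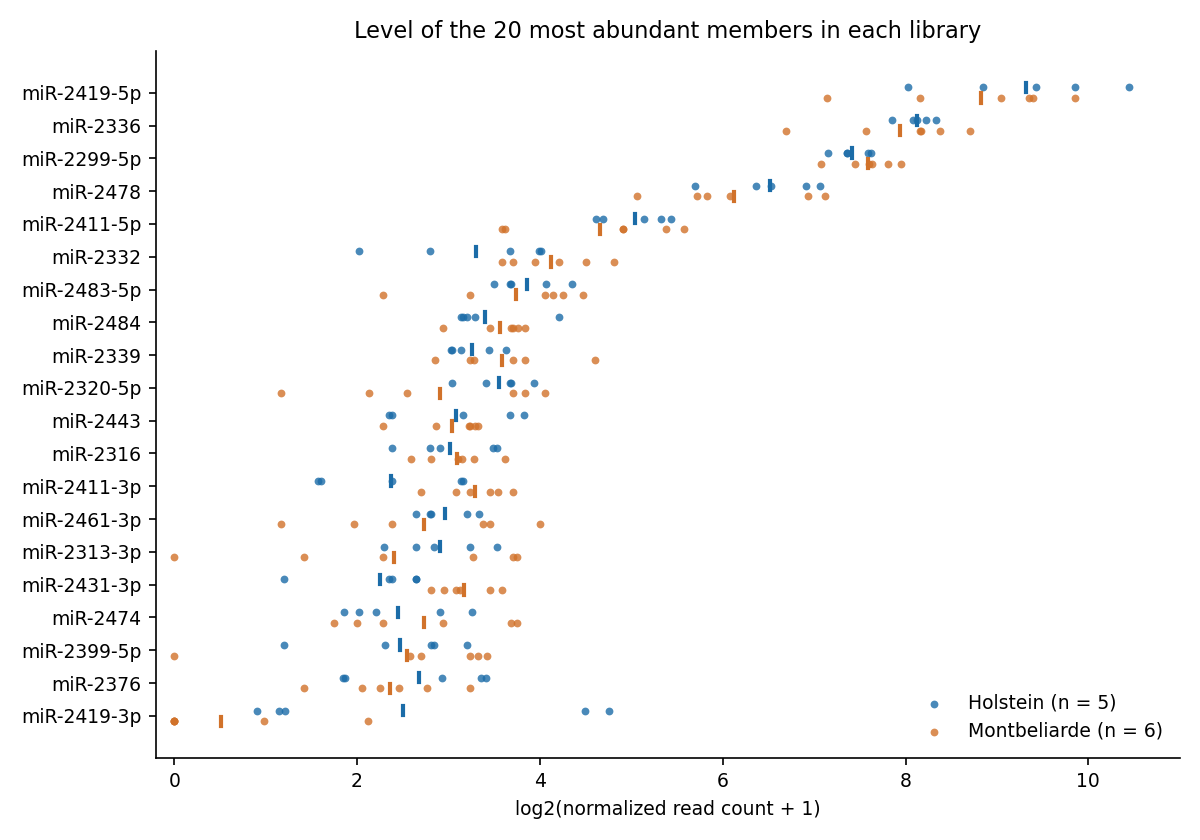
Level of the 20 members with the highest means in each library, as log2(normalized read count + 1), with one point per cow and a vertical line at the mean of each breed (Holstein, n = 5, above and Montbéliarde, n = 6, below in each pair). Levels fall steeply over the first 5 members and then stay within a narrow band, and miR-2419-3p at the bottom has 2 Holstein libraries far to the right of the others.

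The spread between libraries was described by the coefficient of variation of the normalized read counts over the 11 libraries. Among the 9 members with a mean of at least 10, it was highest for miR-2419-5p (57.2%), miR-2332 (47.7%) and miR-2339 (45.7%), and lowest for miR-2299-5p (18.3%), miR-2336 (29.5%) and miR-2484 (30.2%). Counting error alone would give 4.07% for miR-2419-5p, and its variance was 197 times the counting variance. For miR-2484, the counting error of 31.4% was as large as the spread observed. A spread beyond counting error was thus not detectable for miR-2484 at this depth. The median coefficient was 39.6% for the 9 members and 31.2% for all 356 miRNAs of the same minimum. Restricted to means from 10 to 100, it was 41.5% (6 members) beside 38.9% (142 miRNAs). Within breeds, the median SD on the log2 scale was 0.370 in Holstein and 0.716 in Montbéliarde for these members, beside 0.262 and 0.482 for all 356. The SD was larger in Montbéliarde for 7 of 9 members and for 84.6% of all 356.

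For the breed comparison, 54 members reached a sum of 10 counts and were among the 550 miRNAs tested with edgeR. The other 77 members, with 198 counts between them, fell below this sum and were left out of the test. No member passed an adjusted p of 0.05 (0 of 54, lowest 0.171), where the background over all miRNAs tested was 0.364%. At an unadjusted p of 0.05, 3 members passed, or 5.56% of the 54, against a background of 14.2%. One of them was higher in Holstein, where the background was 6.55%, and 2 were higher in Montbéliarde, where it was 7.64%. The estimates fell on both sides, with 32 members higher in Montbéliarde and 22 higher in Holstein, and a median log2 fold change of 0.12 beside 0.03 for all 550. A median SE of 0.59 for the members, against 0.33 for all, limited what could be seen. DESeq2, the tool used in the study, called 1 of the 28 members for which it gave an adjusted p, where its background was 4.86%. Normalized read counts of the breeds did not overlap for 1 member, beside a background of 2%.

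The member with the largest estimate was miR-2419-3p, the opposite arm of the most abundant member. It had 1, 21, 2, 2 and 20 counts in Holstein and 2, 0, 0, 1, 0 and 0 in Montbéliarde. Of its 49 counts, 41 (83.7%) came from Holstein 2 and Holstein 5, and the other 3 Holstein libraries were in the range of the Montbéliarde libraries. The log2 fold change was -3.78 (SE 1.17, edgeR adjusted p = 0.171), while DESeq2 gave -4.11 with an adjusted p of 0.0363. The study, which used DESeq2 on these same libraries, listed this miRNA as differing between the breeds, with the higher level in Holstein. There it lay below the mean read count required for the study's analysis of functions. With 3 counts in all of Montbéliarde, the summed CPM gave a ratio of 13.9 in favour of Holstein (95% counting interval 4.47 to 69.9). This interval leaves out the spread between cows, and the variance over all libraries was 16.8 times the counting variance. Without Holstein 2 the log2 fold change was -3.18 (edgeR adjusted p = 0.351) and without Holstein 5 it was -3.08 (edgeR adjusted p = 0.395). It was -4.87 without Montbéliarde 1 (edgeR adjusted p = 0.159), and limma-voom gave -2.19 with all libraries (adjusted p = 0.339). Both of these libraries were also the highest in Holstein for miR-2419-5p, at 926 and 1394 normalized read counts.

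In the opposite direction, miR-2431-3p had 6, 4, 7, 8 and 1 counts in Holstein and 6, 6, 4, 8, 8 and 14 in Montbéliarde. It was the member without overlap after normalization, since the highest Holstein library was at 5.28 and the lowest Montbéliarde library at 6.01. Means were 4.03 ± 1.63 and 8.17 ± 1.93 normalized read counts (log2 fold change 0.94, SE 0.36, edgeR adjusted p = 0.246). Its gene overlaps the long non-coding RNA LOC132345298, between LRP1, a receptor of lipoproteins, and STAT6, a transcription factor of interleukin signalling.

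Counts of miR-2411-3p were 9, 2, 7, 3 and 6 in Holstein and 6, 6, 8, 11, 10 and 7 in Montbéliarde. Its breeds overlapped, and the means of 4.79 ± 2.94 and 9.02 ± 2.35 normalized read counts gave a log2 fold change of 0.92 (SE 0.42, edgeR adjusted p = 0.335). The stromal markers given above differed between the same breeds. Whether the mix of cell types had a part in these values was not tested.

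**Figure D4:**
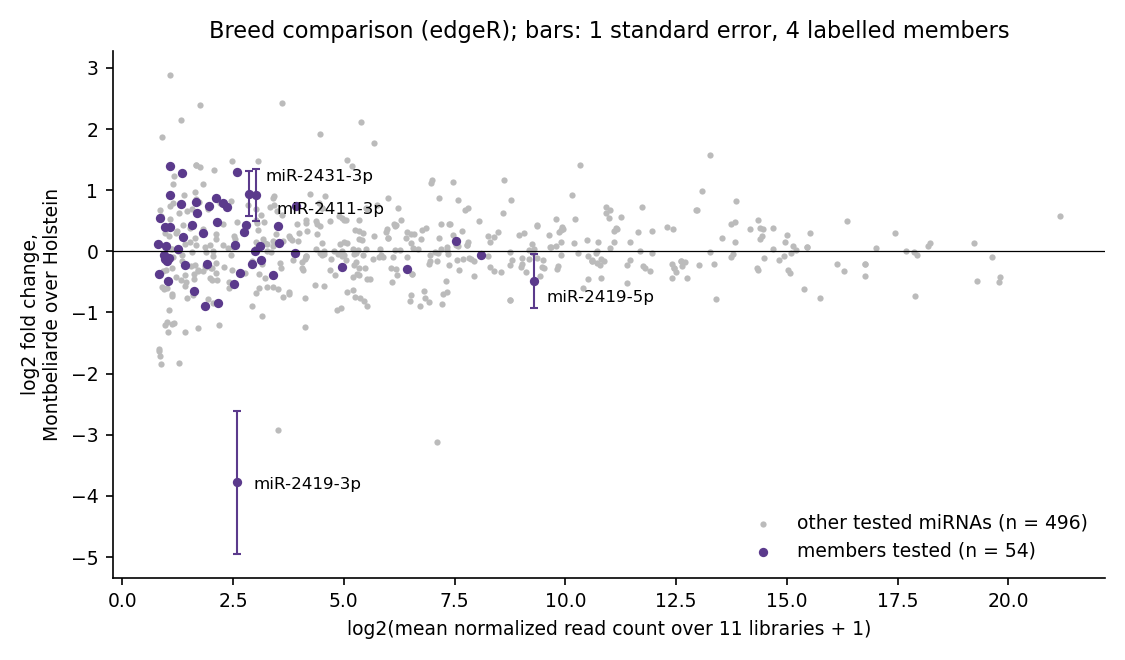
Log2 fold change (Montbéliarde over Holstein, edgeR) against the log2 mean normalized read count of the 550 miRNAs tested, with the 54 members in colour and bars of 1 SE for the 4 labelled members. Most members lie at low levels within 1 of the zero line, and miR-2419-3p stands apart at -3.78 with a wide bar.

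Both arms were listed for 22 hairpins, of which 12 had at least 20 counts in all. Hairpins with a single arm listed gave no share and are left out here, such as miR-2461, with 77 counts on its 3p arm. Among these 12, the 5p arm had more counts in 9 and the 3p arm in 3, namely miR-2313, miR-2415 and miR-2431. The bias towards the 5p arm was strongest for miR-2419 (99.3% of 6761 counts), miR-2299 (98.2% of 2157) and miR-2399 (97.2% of 71). In the other direction, miR-2415 had 0 of 61 counts on the 5p arm (95% Wilson upper bound 5.92%) and miR-2313 had 6 of 85 (7.06%). Intermediate shares on the 5p arm were found for miR-2425 (90.7%), miR-2483 (87.0%), miR-2411 (81.8%) and miR-2320 (72.8%). The arms were close to even for miR-2397 (54.8% of 31 counts) and miR-2448 (52.4% of 21 counts). The same arm was higher in all 11 libraries for 3 hairpins, miR-2299, miR-2411 and miR-2419. It was also the same in every library with a read for miR-2399 and miR-2313 (10 libraries each) and for miR-2415 and miR-2425 (8 libraries each).

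The 7 hairpins with reads in every library were compared between breeds, and none passed after adjustment over these 7, with 3 at an unadjusted p of 0.05 or below. The arms of hairpins outside the number range were not compared, so no background can be set beside these counts. Where only hairpins with at least 100 counts entered the adjustment, miR-2411 and miR-2431 passed (exact permutation test, adjusted p = 0.0455 for each). For miR-2431, the 5p share was 45.5, 50, 22.2, 50 and 66.7% in Holstein and 25, 25, 20, 27.3, 0 and 12.5% in Montbéliarde. Only Holstein 3 lay within the Montbéliarde range, and the means were 46.9% ± 16 and 18.3% ± 10.4 (exact permutation test p = 0.00866, adjusted p = 0.0530). These shares rest on 3 to 16 counts per library, so that the Wilson interval of a single library was as wide as 20.8 to 93.9% in Holstein 5. When single libraries were omitted, the difference between breeds, -28.6 percentage points over all libraries, ran from -34.7 to -23.6 (exact permutation test, adjusted p from 0.0333, without Holstein 3, to 0.127).

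For miR-2411, the 5p share was 84.2, 92.0, 85.4, 94.5 and 83.3% in Holstein and 82.4, 60, 77.1, 73.2, 56.5 and 84.1% in Montbéliarde. The breeds overlapped at 83.3 to 84.1%, and the means were 87.9% ± 5.04 and 72.2% ± 11.5 (exact permutation test p = 0.0152, adjusted p = 0.0530). For miR-2419, the means were 99.0% ± 0.983 and 99.9% ± 0.204 (exact permutation p = 0.0260, adjusted p = 0.0606), with the lowest shares, 97.7% and 98.2%, in Holstein 2 and Holstein 5. The 5p share of miR-2320 was 81.8% ± 12.5 in Holstein and 56.7% ± 26.4 in Montbéliarde (exact permutation p = 0.0779, adjusted p = 0.136). No difference larger than the spread was found for miR-2299, miR-2483 or miR-2397 (exact permutation p = 0.281, 0.418 and 0.626).

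**Figure D5:**
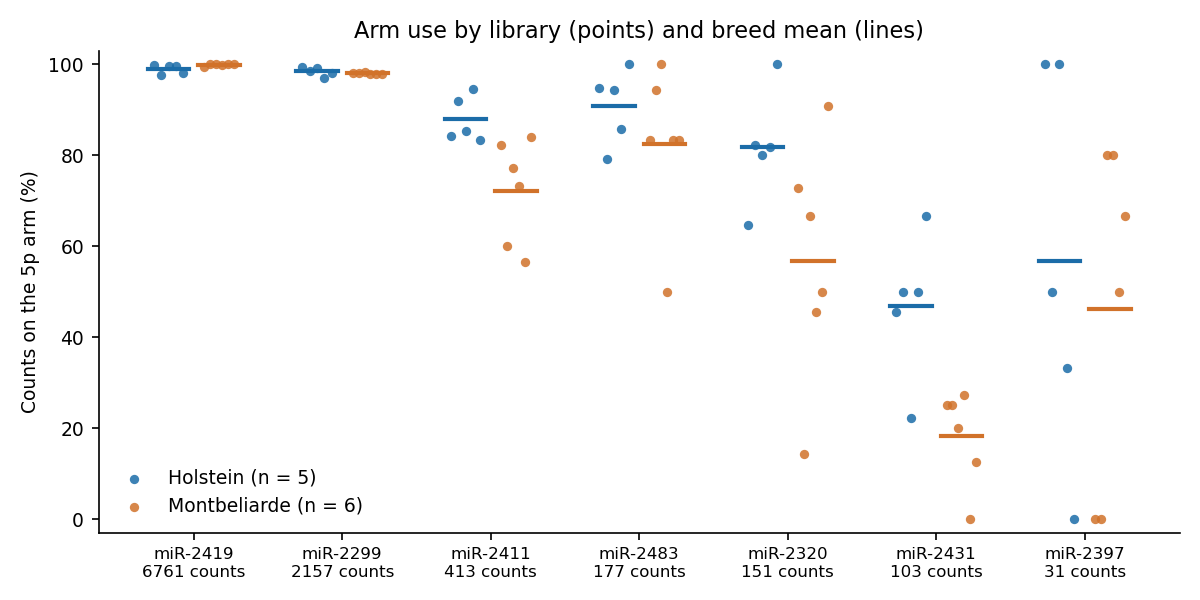
Share of counts on the 5p arm (percent) of the 7 hairpins with reads in every library, one point per cow, with a horizontal line at the mean of each breed and the summed counts under each name. Shares stay near 100 for miR-2419 and miR-2299 and scatter widely where counts are few, and the Holstein points of miR-2431 lie above the Montbéliarde points except in 1 library.

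Some members could not be told apart from another miRNA by their counts. The miR-2310 row, with 19 counts over 10 libraries, was equal in every library to miR-1814c, which is outside the number range. Likewise miR-2300a-5p and miR-2300b-3p had the same 9 counts in 3 libraries. In RefSeq the genes of miR-2300a and miR-2300b overlap each other. The levels of these pairs are uncertain, since whether the same reads stand under both names was not tested. In all, 36 members had counts in a constant ratio to another miRNA, but 33 of them had at most 3 counts.

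The position of the genes was looked up in RefSeq (assembly ARS-UCD2.0), in which 107 of the 109 names were matched. Of these, 89 (83.2%) overlapped a protein-coding gene, 4 a long non-coding RNA and 14 no other gene, without regard to strand. Of the 924 other miRNA genes annotated there, 592 (64.1%) overlapped a protein-coding gene. Among the names tested for breed, 36 of the 45 matched overlapped a coding gene. Of the 4 most abundant members, 3 were among the few that lay outside other genes, namely miR-2419, miR-2336 and miR-2478.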

How the data were processed

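Small RNA libraries (TruSeq) of mammary biopsies from 5 Holstein and 6 Montbéliarde cows were analysed, grouped by the breed given in the sample records. Per the labels, reads were demultiplexed with bcl2fastq 2.17.1.14. According to the methods, the authors trimmed adaptors, then used ncPRO-seq and miRDeep2 with miRBase and a bovine genome assembly to count known and predicted miRNAs. The authors deposited raw read counts per miRNA and library. How reads matching several miRNAs were counted is not given in the sources used here. They also deposited a signal, the counts divided by the DESeq2 size factor of each library (recomputed, largest difference 6.1e-08 percent), and breed means. The deposited log2 fold changes, p-values and adjusted p-values of their DESeq2 (version 1.18.1) comparison were not used.

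Detection was at least 1 count. The breed test was that of edgeR 4.0.16, run in R 4.3.3 (TMM, robust glmQLFit, glmQLFTest), on miRNAs whose counts over the 11 libraries summed to 10 or more, with Benjamini-Hochberg adjustment over all of them and a limit of 0.05. The SE was derived from the log2 fold change and the F statistic. For values with 1 number per library, two-sided exact permutation tests ran over all 462 splits (smallest p 0.00216), and paired shares with sign flips. Arm shares were tested for hairpins with at least 20 counts and reads in every library, and intervals of shares are Wilson 95% intervals. Log2 levels used a pseudocount of 1. The fitting steps were tested on simulated data. DESeq2 1.42.0, limma 3.58.1 (voom), other normalizations and filters, thinning to 6087865 counts and leaving out each library were the alternatives.

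Totals of 6087865 to 16808976 counts make counting error small for the few abundant members and limiting for the others. Named were the 10 members with the highest means, those with an unadjusted p of at most 0.05, hairpins with both arms and at least 20 counts, the 3 highest and 3 lowest coefficients of variation, members whose breeds do not overlap or whose counts equal another miRNA's, and miR-2419-3p. The miRNAs without reads and miR-2463 were named after their values were seen. Members and lists were chosen with earlier results of these data known, and the comparisons with 2 other name groups and the 14 correlations were added later.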

Additional observations from a re-analysis of the deposited data

Results flagged for a closer look

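Among 72 groups of values, 6 had a library standing far from the others by Dixon's criterion, where 1 in 20 would be 3.6. Each group was a member, a hairpin or a summary over the members, within a breed. The 1 in 20 share holds for independent, normally distributed values, which counts near 0 are not. In Holstein 3, miR-2484 was at 17.5 normalized read counts, with the other Holstein libraries at 7.82 to 8.78. In Montbéliarde 1, miR-2419-3p was at 3.33, with the others at 0 to 0.968, which corresponds to 2 counts in that library. The 5p share of miR-2419 was lowest in the same library, at 99.5%, with the others at 99.9 to 100%. In Holstein 5, miR-2397-3p was at 5.21 normalized read counts, with the others at 0 to 1.32. In Holstein 2, miR-2448-3p was at 3.07, with the others at 0 to 0.660. The 5p share of miR-2483 was 50% in Montbéliarde 4, with the others at 83.3 to 100%. The flagged levels of miR-2419-3p, miR-2397-3p and miR-2448-3p rest on 2, 4 and 3 counts, and that of miR-2484 on 29. The flagged share of miR-2483 rests on 4 counts for each arm, and that of miR-2419 on 391 and 2.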

How the results depend on the processing

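Of the values that answer a comparison, 102 alternatives were classed as unchanged, 19 moved a count or a spread and 2 turned the direction. For a difference, unchanged meant the same direction and the same side of the threshold. For a count or a spread, it meant a value equal or close to the main one, so small shifts are included. Calls among the members rose from 0 to 1 (miR-2419-3p) with DESeq2, and stayed at 0 with edgeR when each library was left out. At an unadjusted p of 0.05, 5 members passed without a filter on low counts and 0 with at least 10 counts in 5 libraries, where fewer members were tested. At the main filter, 2 to 4 passed with a library left out. The share over all miRNAs was not computed for these settings. At the main filter with all libraries it was 14.2%, beside 5.56% of the members. Calls among all miRNAs were 21 with DESeq2 and 0 with DESeq2's normalization in edgeR. With TMM they were 0 to 6 with a library left out. The cause of the other changes was not tested. Both differences that turned were those in detection, which became 0.303 members after thinning, and in the summed level of the members, which became 1.60 CPM without miR-2419-5p. Without thinning and with every member kept, leaving out a library gave -6 to -2.83 members and -34.0 to -1.24 CPM. The detected share kept its difference, at -32.4 to -31.8 percentage points.

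With at least 100 counts per hairpin, where fewer hairpins entered the adjustment, 2 hairpins passed, miR-2411 and miR-2431 (exact permutation test, adjusted p = 0.0455 for each). At the minimum of 20 counts, 0 to 1 passed with a library left out. No background stands beside these counts, since hairpins outside the number range were not compared. The median log2 SD in Holstein was 0.194 among members with a mean of at least 100. At the minimum of 10, it was 0.329 to 0.423 in Holstein and 0.590 to 0.791 in Montbéliarde with a library left out. Differences close to 0 turned sign when single libraries were left out, with log2 fold changes from -0.23 to 0.18 for miR-2336, -0.10 to 0.23 for miR-2483-5p, -0.42 to 0.14 for miR-2313-3p, -0.38 to 0.58 for miR-2425-5p, -0.31 to 1.0 for miR-2397-3p and -0.28 to 0.0599 for miR-2448-5p. For the arms of miR-2397, the log2 ratio gave 0.12 and the share -24.7 to 0.278 percentage points. No paired analysis was possible because the labels give no replicate numbers shared between the breeds.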

Other observations

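Levels of the 4 most abundant members were compared with each other and with the summed epithelial and stromal markers over the 11 libraries, in 14 correlations. The closest relation was between miR-2419-5p and miR-2336 (Pearson r = 0.77, permutation p = 0.0059, adjusted p = 0.0830; Spearman rho = 0.55, permutation p = 0.0828). Pearson r was 0.60 without the 2 libraries farthest from the median of miR-2419-5p, and 0.91 within the 6 Montbéliarde libraries (exact permutation p = 0.0194), where Spearman rho was 0.60 (exact permutation p = 0.242). Relations within the 5 Holstein libraries were not computed. After adjustment over the 14, no relation passed a limit of 0.05, with lowest adjusted p-values of 0.0830 for Pearson and 0.504 for Spearman. The points share library depth and tissue composition, and the part of either was not tested.

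Of the hairpins below 20 counts, 10 had both arms listed. Reads were found on the 3p arm alone for miR-2454 (13 counts), miR-2466 (10 counts) and miR-2370 (6 counts), which were picked out after their values were seen. In each of these a 5p share of up to 22.8, 27.8 and 39.0% remained possible (95% Wilson upper bounds).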
